A study of Mus musculus with 8 samples.

Results

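The 10 cohesin genes described here were chosen by name: Stag3, Smc1b, Smc3, Rec8, Rad21l, Rad21, Pds5a, Pds5b, Wapl and Esco2, out of 12583 genes with at least 1 event in 10 tables of alternative splicing. All rows carrying these symbols were taken, without regard to their values. The tables cover polyadenylated RNA of spermatocytes, the germ cells in meiosis, and of round spermatids, the haploid cells that follow, sorted by flow cytometry after Hoechst staining from adult C57BL/6 testes. The 4 groups of 2 libraries each were Larp7 knock-out spermatocytes, control spermatocytes, Larp7 knock-out round spermatids and control round spermatids; the knock-out was conditional, and the sources used here do not name a Cre driver. The Larp7 protein binds 7SK RNA, a brake on transcription elongation, and helps to modify the U6 RNA of the spliceosome. The 2 libraries of a group are called biological replicates but are not said to come from separate animals, so p-values measure the spread between these libraries.

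Column headers call the 2 sample groups of a table first and second by number alone, without a genotype. Each difference within a stage is the value of the first group less that of the second, with no genotype direction, and the difference of that contrast between stages was not tested. Library values of a table are given in the order of its cells, 2 of the first and then 2 of the second sample group. The comparison of stages carries a direction, because each table is labelled with its stage.

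Cohesin is a ring of an SMC pair, a kleisin that closes it and an SA subunit that binds the kleisin, and it holds sister chromatids together from replication to segregation. Germ cells in meiosis replace most mitotic subunits: SMC1B takes the place of SMC1A, REC8 and RAD21L that of RAD21, and STAG3 that of STAG1 and STAG2, while SMC3 is shared by all complexes. PDS5A, PDS5B and WAPL control how long rings stay on chromatin, and ESCO2 acetylates SMC3 during replication to lock cohesion. Mice without Stag3, Smc1b, Rec8 or Rad21l have meiotic arrest or chromosome errors and reduced or lost fertility.

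All 10 genes had events in the spermatocyte tables, 109 in all, of which 108 had at least 10 reads per library on average and a read of each form and were tested. In round spermatids 7 genes had 62 events, all tested, and no event is listed for Rad21l, Rad21 or Esco2. Both stages shared 53 of these events. Stag3 gave 42 of the spermatocyte events, Wapl 24 and Smc1b 21, whereas Smc3, Rad21l and Rad21 gave 1 each.

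Reads over all events of a library ranged from 49904607 to 102000320, and a read can count toward several overlapping events. The Larp7 cassette exon at chr3:127544154-127544278 was included at 2.40%, 0.951%, 100% and 100% in the 4 spermatocyte libraries. In round spermatids its inclusion was 0.279%, 0.598%, 100% and 100%. This exon of the knocked-out gene was thus nearly absent in the first sample group of both stages, although no header ties that group to a genotype. Summed reads of the spermatocyte marker genes were 3339 to 5189 CPM, or counts per 1000000 reads over the most covered events of all genes, in spermatocytes and 408 to 520 in round spermatids, over the 9 of 10 markers with events in both stages. Those of the round spermatid markers, 6 of 8 with events in both stages, were 552 to 658 and 2049 to 2379. Of the spermatogonia markers 8 of 10 had events in spermatocytes, Gfra1 and Sall4 having none, and they summed to 493, 185, 69.3 and 66.4 CPM in the order of libraries. Sertoli markers, 4 of 6 with events and Sox9 and Amh without, summed to 205, 135, 40.9 and 69.2. Leydig, peritubular and immune markers, 4 of 6 with events, summed to 66.0, 39.9, 34.5 and 44.3, with overlap of the sample groups. Sums of other germ cell markers differed between the sample groups of spermatocytes without overlap, with 0 genes of these lists called for reads by limma. Log2 read differences lay above the all-gene median for 6 of 9 spermatocyte, 1 of 6 round spermatid and 0 of 3 elongating spermatid markers. Spermatocyte markers summed to 5189, 4434, 4092 and 3339 CPM, round spermatid markers to 552, 599.8, 603 and 658, and the 3 of 6 elongating spermatid markers with events (Odf2, Akap4 and Gapdhs) to 1711, 2072, 2715 and 2432. In round spermatids the elongating spermatid markers summed to 8429, 10472, 13965 and 10921, again lower in the first group. In bulk libraries such as these, fewer cells of a type and less RNA per cell cannot be told apart.

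Stretches before the start sites of 3 meiosis-specific subunit genes are shown here as reference for the comparison of their levels between stages. Each line gives the 180 bases before the RefSeq start in build GRCm38.p6, written 5′ to 3′ on the strand of the gene: Stag3 at chr5:138280329-138280508 on the plus strand, Smc1b at chr15:85131958-85132137 on the minus strand and Rec8 at chr14:55617986-55618165 on the plus strand.
Stag3: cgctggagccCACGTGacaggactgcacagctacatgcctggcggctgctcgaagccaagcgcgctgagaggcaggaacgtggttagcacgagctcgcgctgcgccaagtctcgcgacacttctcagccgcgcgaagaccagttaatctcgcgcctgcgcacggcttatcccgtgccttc
Smc1b: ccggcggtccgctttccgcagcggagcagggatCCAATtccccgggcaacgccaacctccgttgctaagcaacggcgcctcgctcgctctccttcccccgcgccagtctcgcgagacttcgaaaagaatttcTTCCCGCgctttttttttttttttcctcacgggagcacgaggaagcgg
Rec8: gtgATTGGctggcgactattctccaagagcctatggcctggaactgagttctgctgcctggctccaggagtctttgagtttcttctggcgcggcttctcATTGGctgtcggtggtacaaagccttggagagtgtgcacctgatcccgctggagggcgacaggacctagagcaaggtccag
Capitals mark CACGTG, the E-box core; GCGGGAA, a sequence of the type bound by E2F factors, here on the opposite strand; and CCAAT, the NF-Y box, on either strand. They were searched on both strands in the 250 bases before the start, and no pair of these motifs overlaps in the stretches shown. CACGTG lies in 6.02% of 32851 mouse promoters of that length, GCGGGAA in 3.82% and CCAAT in 33.8%. Of the 8 members matched in the RefSeq table, Stag3 alone has CACGTG, Smc1b and Pds5a have GCGGGAA, and Rec8 has 3 CCAAT boxes, of which the stretch above holds those starting 177 and 81 bases before the start. Wapl has 2 CCAAT boxes, and Stag3, Smc1b and Pds5b have 1 each. These matches describe letters only.

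Because the tables hold splicing events and no gene totals, the level of a gene is read here from its most covered event. In CPM per kilobase of form length, Stag3 was the highest member in spermatocytes, at 1473, 1807, 1677 and 1968, above 97.5% of genes. All 4 values lie above those of every other member. Smc1b followed at 392, 425, 291 and 337 and Wapl at 384, 370, 320 and 347, and these ranges overlap. The means of the other 7 were 157 for Pds5b, 105 for Pds5a, 61.4 for Rad21, 37.6 for Smc3, 30.4 for Rec8, 27.2 for Esco2 and 6.17 for Rad21l. Pds5b lay above Pds5a without overlap, and from Pds5a down each gene overlapped the next in the order.

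In round spermatids the order differed. Stag3 had 941, 702, 1044 and 852 CPM per kilobase, Smc1b 730, 865, 728 and 755, and Rec8 519, 448, 422 and 347. Stag3 and Smc1b overlapped in that stage, and Rec8 overlapped Wapl, whose values were 432, 322, 291 and 285. Smc3 averaged 124 and lay apart from its neighbours, whereas Pds5b, at 46.8, and Pds5a, at 34.7, overlapped. The plot of levels in each library shows Rec8 among the lower members in spermatocytes and among the upper ones in round spermatids. The most covered event was chosen within each stage, so several genes, Rec8 and Stag3 among them, are read from different exons. For Rec8 these are chr14:55622427-55622562 in spermatocytes and chr14:55618898-55619040 in round spermatids.

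**Figure D1:**
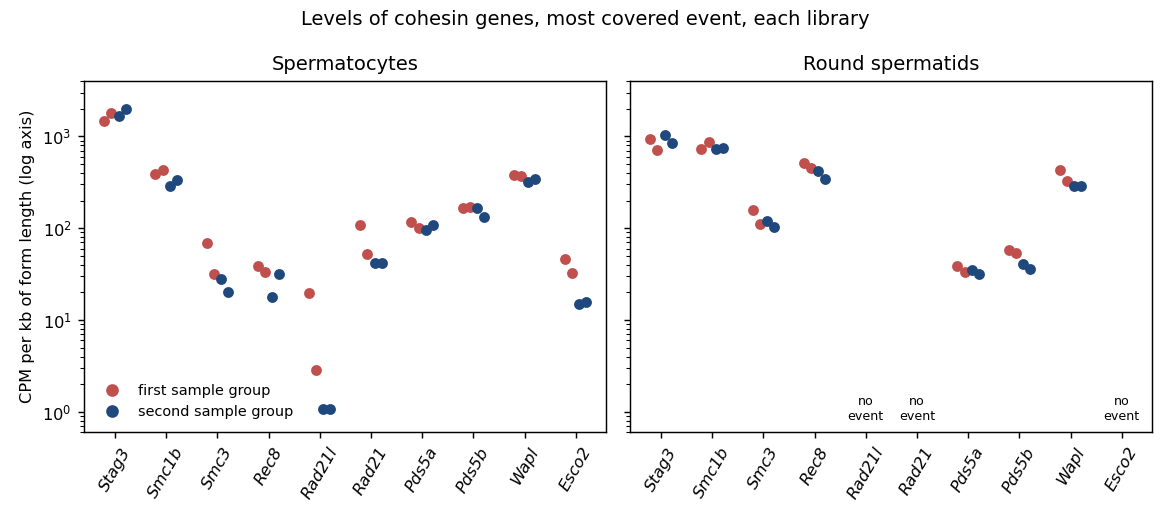
Level of every cohesin gene, from its most covered event, in CPM per kilobase of form length (log axis), 1 point per library, red for the first and blue for the second sample group of each stage. Stag3 is highest in spermatocytes, with a mean of 1731. Rec8 has a mean of 30.4 in spermatocytes and 434 in round spermatids, read from different exons because the event was chosen within each stage. Rad21l, Rad21 and Esco2 have no event in round spermatids.

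The stage comparison asks which subunits differ in level between meiotic cells and the haploid cells after them. It used the most covered event present in both tables for each gene, so that the same exons are read in both stages, and CPM here are over such shared events. Of the 7 genes with such an event, 3 were called higher in spermatocytes (Pds5b, Pds5a and Wapl) and 3 lower (Rec8, Smc3 and Smc1b) by limma at an adjusted p below 0.05. Over all 8510 genes 49.8% were called higher in spermatocytes and 28.5% lower, so calls in either direction were common. The median log2 difference of all genes was 0.45, and that of the 7 members 0.22.

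Rec8, the meiotic kleisin, had the largest difference of the 7. Its event, the exon at chr14:55618898-55619040, had 16.1, 9.03, 7.68 and 10.8 CPM in spermatocytes and 170, 150, 141 and 117 in round spermatids. All 4 round spermatid libraries lay above all 4 spermatocyte libraries. The log2 difference, spermatocytes minus round spermatids, was -3.81 (SE 0.20, limma adjusted p = 1.46e-09), or -4.26 relative to the median of all genes. It was -3.80 with the first sample groups alone and -3.81 with the second alone. The other kleisins could not be compared: in spermatocytes the most covered Rad21 exon, chr15:51976099-51976198, had 274, 263, 128 and 126 reads and that of Rad21l, chr2:151649076-151649153, had 44, 13, 3 and 3.

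The SMC subunits were also lower in spermatocytes. Smc3, the subunit common to all cohesin rings, had 18.7, 8.60, 7.58 and 5.43 CPM in spermatocytes and 38.4, 27.9, 30.1 and 26.0 in round spermatids at chr19:53618069-53618140. The groups did not overlap, and the log2 difference was -1.78 (SE 0.25, limma adjusted p = 2.10e-05). Smc1b, the meiosis-specific partner of SMC3, had 158, 192, 116 and 146 CPM against 242, 329, 239 and 286 at chr15:85097896-85098033. These stages did not overlap either, with a log2 difference of -0.85 (SE 0.14, limma adjusted p = 7.95e-05).

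Stag3, the meiotic SA subunit, did not pass the test. Its shared event, the exon at chr5:138290709-138290913, had 351, 388, 439 and 468 CPM in spermatocytes and 374, 286, 425 and 347 in round spermatids. The stages overlapped, and the log2 difference was 0.22 (SE 0.12, limma adjusted p = 0.118). Its sign depends on the scaling: median-ratio scaling, which moves the median of all genes to 0.02, gave -0.22. With reads summed over all its events the difference was 0.33 and passed (limma adjusted p = 0.00812), as it did without the first library of the first sample group of round spermatids, at 0.31.

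The regulators that hold or release rings were higher in spermatocytes. Pds5b had 42.2, 43.2, 41.1 and 33.4 CPM against 14.9, 13.9, 12.3 and 10.5 in round spermatids at chr5:150793549-150793611. Pds5a had 26.1, 25.7, 27.0 and 19.9 against 9.14, 8.07, 8.37 and 7.62 at chr5:65620550-65620612. Neither paralogue overlapped between stages, and their log2 differences were alike, 1.64 (SE 0.17, limma adjusted p = 8.99e-07) and 1.57 (SE 0.19, limma adjusted p = 5.60e-06). Wapl, which opens the ring, had 170, 189, 153 and 159 against 152, 146, 112 and 115, with no overlap at the margin between 153 and 152. Its log2 difference of 0.36 (SE 0.11, limma adjusted p = 0.00857) lay below the median of all genes, turned to -0.066 under median-ratio scaling and was not called with the first sample groups alone.

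**Figure D2:**
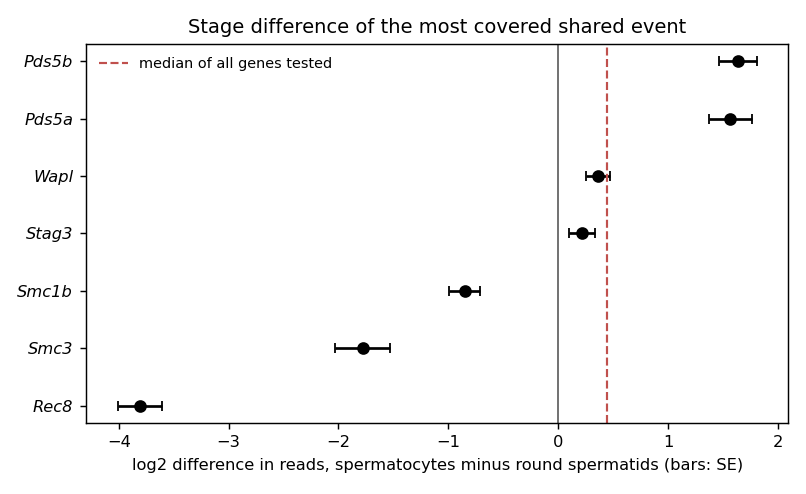
Log2 difference in reads of the most covered shared event, spermatocytes minus round spermatids, for the 7 cohesin genes present in both stages; points are limma estimates, bars their SE, and the dashed line the median of all 8510 genes at 0.45. Rec8 at -3.81 and Smc3 at -1.78 lie to the left, Pds5a at 1.57 and Pds5b at 1.64 to the right of that line.

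Among the 5 genes whose centred log2 levels lay nearest to those of Rec8 over the 8 libraries, of 8510 genes, were Heatr4, Mroh9, Golga7b and RP24-124K4.5, at Euclidean distances of 0.40 to 0.51. Heatr4 averaged 8.09 CPM in spermatocytes and 114 in round spermatids, close to the 10.9 and 145 of Rec8. The 5 nearest to Stag3 were Man2b2, Sik2, Thumpd3, Golgb1 and Kctd9, at distances of 0.25 to 0.29. All points share their libraries and depths, and these orders are descriptions.

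Other genes of sister chromatid cohesion, condensin and the SMC5/6 complex were taken from a list of 45 symbols, of which 33 were tested between stages. Of these, 24 were called higher in spermatocytes and 3 lower by limma at an adjusted p below 0.05. Over all 8510 genes 49.8% were called higher and 28.5% lower. The median log2 difference was 1.29 against 0.45 over all genes. Those called lower were Dscc1, part of the clamp loader that supports cohesion, at -3.67, Stag2 at -3.23 and the kinase gene Plk1 at -1.09. Stag2 is a mitotic SA subunit gene on the X chromosome. Stag1, the other mitotic SA subunit gene, lies on chromosome 9 and was higher at 1.46. The mitotic Smc1a, also on the X chromosome, was low in both stages. It had at most 3.76 CPM in any spermatocyte and 1.63 in any round spermatid library. Its log2 difference of -0.26 (SE 0.57) was not called (limma adjusted p = 0.691). The part of X linkage in these values was not tested.

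Splicing of the members was compared next. Within spermatocytes 3 of the 108 tested events were called between the sample groups, all in Stag3, so 1 of 10 members had a called event. Of all 61123 tested events 0.537% and of all 9858 genes 2.57% were called. Shares of genes also depend on the number of events tested per gene, which was 42 for Stag3. Among the other 9 members the smallest adjusted p of an event lay between 0.48 for Smc1b and 0.799 for Rad21l (limma). In each of these 9 genes that event was a cassette exon skipped by at most 20 reads in any library. In Smc1b, at chr15:85091943-85092084, it was skipped by 0, 1, 0 and 6 reads. In Pds5b, at chr5:150746606-150746751, all 9 skipping reads came from the second library of the first group. In Pds5a, at chr5:65631713-65631781, there were 5, 1, 0 and 0 and in Smc3, at chr19:53618069-53618140, 6, 3, 0 and 1. The exons of Rad21 and Rad21l given above had 2 skipping reads each, and those of Rec8 at chr14:55622427-55622562 and Esco2 at chr14:65821581-65821741 had 1 each, so these rows rest on single libraries. Most cassette rows of the members, which can repeat an exon with other flanks, were almost always included. At 95% or more in every spermatocyte library were 21 of 28 in Stag3, 16 of 17 in Smc1b and 15 of 15 in Wapl. The same held for 4 of 5 in Rec8, 5 of 6 in Pds5b, 3 of 3 in Esco2 and 2 of 2 in Pds5a. In Rad21 it was 1 of 1, and in Smc3 and Rad21l 0 of 1 each. The share over all genes was not computed.

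The first Stag3 event is an intron of 416 nucleotides at chr5:138290914-138291329 (mm10, plus strand), between exons 138290709-138290913 and 138291330-138291481. Spermatocyte libraries retained it at 9.48%, 6.33%, 2.97% and 3.69%, from 490, 694, 239 and 297 inclusion reads. Both libraries of the first group lay above both of the second. The log2 odds of retention differed by 1.21 (SE 0.20, limma adjusted p = 8.53e-06). In round spermatids retention was 1.29%, 1.46%, 0.703% and 1.15%, again without overlap, and the difference of 0.62 (SE 0.32) was not called (limma adjusted p = 0.641).

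The second is a cassette exon of 102 nucleotides, a multiple of 3, at chr5:138308827-138308928, the called exon nearest the 3′ end of the gene. Its inclusion in spermatocytes was 86.9%, 86.6%, 94.1% and 95.7%, with 168, 342, 101 and 56 skipping reads. The groups did not overlap, and the log2 odds of inclusion differed by -1.45 (SE 0.27, limma adjusted p = 7.87e-05). In round spermatids inclusion was 90.0%, 87.7%, 93.4% and 92.4%, with the same order of groups and a difference of -0.75 (SE 0.29) that was not called (limma adjusted p = 0.641). The authors' deposited table gives this exon an FDR of 0.0151 in round spermatids, where 2.59% of all events have an FDR below 0.05.

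The third is a cassette exon of 80 nucleotides at chr5:138297623-138297702. It was skipped by 34, 41, 5 and 7 reads in spermatocytes, and inclusion was 97.6%, 98.6%, 99.8% and 99.7%. Both libraries of the first group lay below both of the second, and the log2 odds of inclusion differed by -2.53 (SE 0.60, limma adjusted p = 0.00943). A quasi-binomial test of the same reads called the intron and the exon of 102 nucleotides (adjusted p = 0.00125 for each) but not this exon (adjusted p = 0.0607). None of the 3 was called by limma without any 1 of the 4 libraries, with the variance trend on total reads, without weights or without a minimum of reads, and their adjusted p then reached up to 0.7285. The same sample groups were separated by the spermatogonia and Sertoli marker sums above, which were higher in the first. These groups overlapped in the sums of Leydig, peritubular and immune markers. The groups were also separated by the sums of the spermatocyte markers, higher in the first, and of the round and elongating spermatid markers, lower in the first. The part of other cells, or of the mix of germ cell stages, in the Stag3 differences was not tested.

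**Figure D3:**
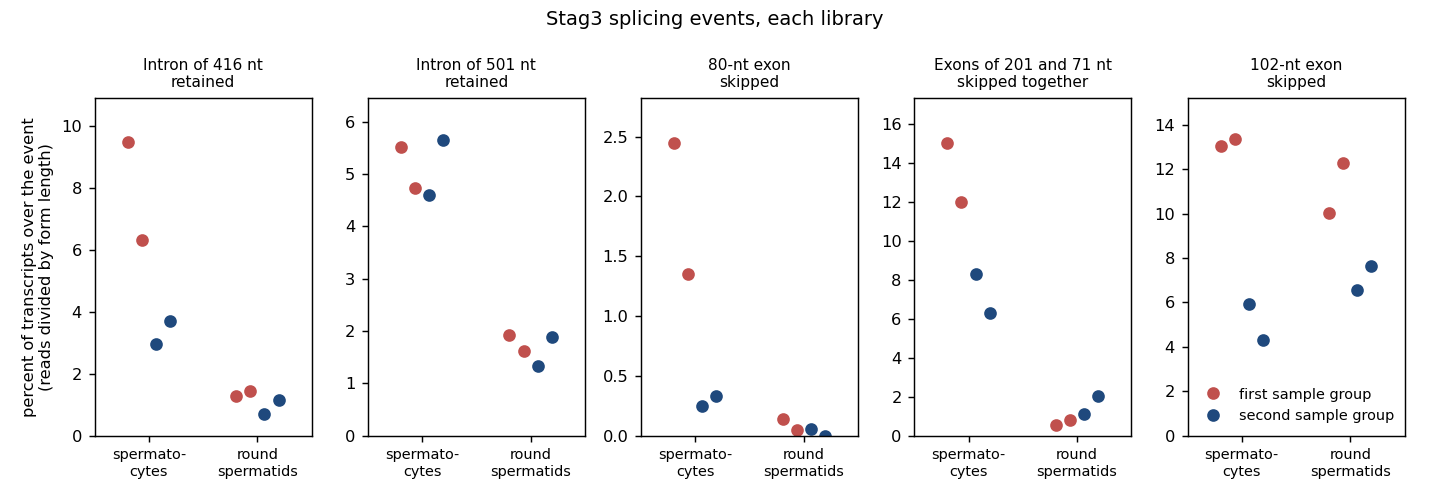
Retained or skipping form of Stag3 events, in percent of reads divided by form length, 1 point per library, red for the first and blue for the second sample group. The 416-nucleotide intron is retained at 2.97% to 9.48% in spermatocytes and 0.703% to 1.46% in round spermatids, and the joint skip of 2 exons is at 6.29% to 15.0% in spermatocytes and 0.576% to 2.04% in round spermatids.

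A further Stag3 form leaves out 2 neighbouring exons at once, of 201 nucleotides at chr5:138299653-138299853 and 71 nucleotides at chr5:138299954-138300024. Together they hold 272 nucleotides, which is not a multiple of 3. The rows of the 2 exons rest on the same skipping reads, 100, 185, 75 and 59 in spermatocytes, and thus describe 1 junction. Skipping of either exon alone had between 0 and 7 reads in any library of the 8. Inclusion of the exon of 71 nucleotides was 85.0%, 88.0%, 91.7% and 93.7% in spermatocytes. The sample groups did not overlap, but the difference of -0.91 (SE 0.28) was not called (limma adjusted p = 0.126), whereas the authors' deposited table gives it an FDR of 0.000562. These rows count fewer inclusion junctions than rows whose flanks adjoin the exon, 1386 against 2788 inclusion reads for the exon of 201 nucleotides in the first library, so the percentages suit comparison between libraries better than reading as absolute shares.

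**Figure D4:**
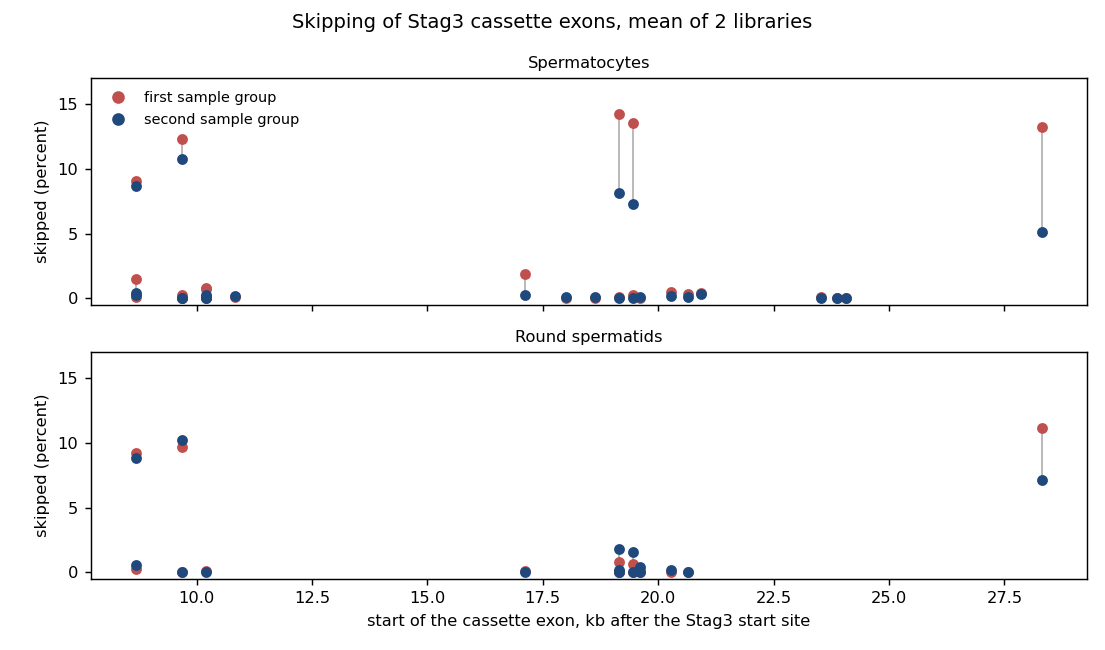
Skipping form of each Stag3 cassette event, in percent of reads divided by form length, against the distance of the exon from the RefSeq start site in kilobases. Points are means of 2 libraries, red for the first and blue for the second sample group. Shown are the 26 of 28 spermatocyte and 16 of 16 round spermatid cassette events included at 50% or more in both groups. Most events lie near 0, among them rows of the exons of 201 and 71 nucleotides with other flanks. The rows for the joint skip of these exons stand at 7.29% to 14.3% in spermatocytes and below 2% in round spermatids. Those of a pair nearer the start stand at 8.65% to 12.3% and 8.83% to 10.3%. The exon of 102 nucleotides stands at 13.2% and 5.11% in spermatocytes and 11.2% and 7.10% in round spermatids, first group before second.

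Stag3 has a further pair of exons left out together, near its 5′ end: 97 nucleotides at chr5:138289196-138289292 and 77 nucleotides at chr5:138290191-138290267, which sum to 174, a multiple of 3. Their shared skipping reads numbered 47, 86, 50 and 64 in spermatocytes and 32, 59, 62 and 29 in round spermatids. Inclusion of the exon of 97 nucleotides was 90.8%, 91.0%, 92.0% and 90.7% in spermatocytes and 93.5%, 88.0%, 89.2% and 93.1% in round spermatids. This pair overlapped between stages, with a log2 difference of 0.10 (SE 0.22, limma adjusted p = 0.882), and was not called between the sample groups of either stage.

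The authors' deposited tables give 6 of the 109 spermatocyte events of the members an FDR below 0.05, all in Stag3, against 4.96% of all events. They are the 3 called events, both rows of the exon pair and an alternative 3′ splice site that shares the intron at chr5:138290914-138291329. In round spermatids the same holds for 1 of 62 events, the Stag3 exon of 102 nucleotides. The fit used here called 0 of the 62 events in round spermatids, where 0.131% of all events and 0.515% of genes were called, and a quasi-binomial test also called 0. At an unadjusted p below 0.05 there were 5 such events, or 8.06%, against 5.88% of all events (limma). The member events of smallest p there, apart from the Stag3 exon of 102 nucleotides, also had few reads of the rarer form. The exons of Rec8 at chr14:55624723-55624786 and Pds5b at chr5:150749834-150749947 were skipped by 3 and 2 reads, all in the first library of the second group. Those of Smc1b at chr15:85127759-85127871 and Wapl at chr14:34737271-34737386 were skipped by 1, 1, 2 and 6 and by 1, 3, 0 and 7 reads. The Smc3 exon at chr19:53618069-53618140 was skipped by 22, 12, 10 and 10 reads, and a Pds5a intron at chr5:65627200-65627559 was retained by 5, 23, 10 and 2.

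Across all members 56 of 78 tested cassette exons, or 71.8%, had lower inclusion in the first sample group of spermatocytes, close to the 68.4% of all 43940 cassettes. In round spermatids 23 of 44, or 52.3%, were lower in the first sample group, against 58.5% of all cassettes. The Smc1b exon at chr15:85090872-85091017 was included at 100%, 100% and 75.2% in the 3 spermatocyte libraries that had reads over it, and was left untested with 0 to 7 reads per library.

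Between stages 7 of the 53 shared events were called, in Stag3, Wapl and Pds5a, so 3 of 7 members had a called event. Of all events 12.5% and of all genes 28.2% were called. The 416-nucleotide Stag3 intron was retained more in spermatocytes, with a log2 difference of 2.21 (SE 0.22, limma adjusted p = 3.61e-22). It passed in the first sample groups alone, at 2.51, and in the second alone, at 1.92. A Stag3 intron of 501 nucleotides at chr5:138296826-138297326 was retained at 5.52%, 4.73%, 4.61% and 5.65% in spermatocytes and 1.92%, 1.63%, 1.33% and 1.89% in round spermatids. No library of one stage reached the other, and the difference was 1.65 (SE 0.18, limma adjusted p = 8.04e-18). Its sample groups overlapped in both stages. Higher retention in spermatocytes was frequent: 652 of the 740 retained introns called over all genes were higher there.

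The joint exon skip of Stag3 was the member event with the largest stage difference in inclusion among those called. Inclusion of the exon of 71 nucleotides was 85.0%, 88.0%, 91.7% and 93.7% in spermatocytes and 99.4%, 99.2%, 98.9% and 98.0% in round spermatids, where only 4, 8, 8 and 13 skipping reads were counted. The stages did not overlap. The log2 odds of inclusion differed by -3.26 (SE 0.41, limma adjusted p = 3.69e-13), by -4.29 in the first sample groups alone and by -2.24 in the second alone. The row of the exon of 201 nucleotides, with the same skipping reads, gave -3.21 (SE 0.41). The Stag3 exon of 102 nucleotides, in contrast, was not called between stages. Spermatocyte libraries skipped it at 4.31% to 13.4% and round spermatid libraries at 6.58% to 12.3%, so the stages overlapped.

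The remaining stage calls rest on few skipping reads. The Stag3 exon of 80 nucleotides had 2, 1, 1 and 0 skipping reads in round spermatids, and its difference of -3.13 (SE 0.85, limma adjusted p = 0.00347) was not called with the variance trend on total reads (adjusted p = 0.0650), with the second sample groups alone, or without the second library of the first or the first library of the second round spermatid group. In Wapl the exon of 112 nucleotides at chr14:34730549-34730660 was skipped by 19, 20, 5 and 9 reads in spermatocytes and 1, 2, 1 and 1 in round spermatids. Its inclusion was 97.1% to 99.4% and 99.8% to 99.9%, and the difference of -2.60 (SE 0.74, limma adjusted p = 0.00590) was lost with the second sample groups alone and without any 1 of 3 round spermatid libraries, the first of the first group being the exception. In Pds5a the exon of 63 nucleotides at chr5:65620550-65620612 had 0, 3, 0 and 1 skipping reads in spermatocytes and 2, 4, 3 and 1 in round spermatids. Its difference of 2.16 (SE 0.72, limma adjusted p = 0.0258) went the other way and was not called by the quasi-binomial test (adjusted p = 0.0642), nor with either pair of sample groups alone (limma adjusted p = 0.281 and 0.223). It was also lost with the variance trend on total reads, without weights, without either second-group spermatocyte library, without the second library of the first or without the first library of the second round spermatid group.

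The other shared members had no event called between stages, with smallest adjusted p of 0.382 for Pds5b, 0.519 for Smc1b, 0.648 for Smc3 and 0.757 for Rec8 (limma). That Pds5b event, the exon at chr5:150790505-150790619, was skipped by 10, 8, 10 and 7 reads in spermatocytes and 2, 4, 0 and 0 in round spermatids, while those of Smc1b and Smc3 are the exons at chr15:85091943-85092084 and chr19:53618069-53618140. Rec8, whose reads differed most between stages, kept the exon of 50 nucleotides at chr14:55623164-55623213 at 91.5% to 100% in spermatocytes and 92.9% to 94.7% in round spermatids. Pds5b has a 5′ splice site choice of 6 nucleotides at chr5:150796671-150796676 with 33.1%, 33.8%, 37.3% and 30.9% use of the longer form in spermatocytes and 47.7%, 35.6%, 35.1% and 37.9% in round spermatids. Wapl has a 3′ splice site choice of 18 nucleotides at chr14:34694987-34695004, with the longer form at 80.9% to 87.1% and 80.2% to 89.0%. Both choices use each site at a substantial share in every library, and their ranges overlapped between stages.

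Reads of the members between the sample groups were compared last. In spermatocytes 0 of 10 members were called by limma with voom weights, where 0.0609% of genes were called. At an unadjusted p below 0.05 there were 2, Esco2 and Smc1b, a share of 20% that is close to the 20.7% of all genes. Esco2, the acetyltransferase of SMC3, had 142, 200, 57 and 60 reads, or 14.1, 10.03, 4.69 and 4.87 CPM. Both libraries of the first group lay above both of the second, and the log2 difference of 1.24 (SE 0.35) did not pass (limma adjusted p = 0.126). Fitted as limma-trend it passed, at 1.31 (limma adjusted p = 0.0390), in a fit that called 545 genes, or 5.53%.

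Smc3 had 15.1 and 7.02 against 6.25 and 4.46 CPM, and Rad21, the mitotic kleisin, had 27.1 and 13.2 against 10.5 and 10.2. The first library of the first group was the highest in both, as it was for Rad21l. Log2 differences were 0.82 (SE 0.44) for Smc3, 0.74 (SE 0.36) for Rad21 and 2.24 (SE 1.26) for Rad21l, with limma adjusted p of 0.314, 0.277 and 0.334. Without the second library of that group these 3 genes and Esco2 were called, with differences of 1.51, 1.38, 3.95 and 1.55, but that setting called 2002 of 9686 genes, or 20.7%, of which 1786 were higher in the first group. The same first library had the highest spermatogonia marker sum, 493 CPM, and the part of other cells in these values was not tested.

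Stag3, at -0.15, Pds5a, at 0.04, Wapl, at 0.18, and Pds5b, at 0.19, had the smallest differences in spermatocytes, and Smc1b had 0.39 (SE 0.15, limma adjusted p = 0.188) without overlap of the groups. The median of the 10 members was 0.48 against 0.15 over all genes. In round spermatids 0 of 7 members were called, where 0.0752% of genes were called by limma. At an unadjusted p below 0.05 there were 0 members, against 10.6% of all genes. Limma-trend called 0 members, against 0.0859% of all genes. Differences of the members ranged from -0.22 for Stag3 to 0.52 for Pds5b. The median there was 0.22 against 0.07 over all genes.

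Of the 45 listed pathway genes 35 were tested in spermatocytes, and 3, or 8.57%, had an event called between the sample groups. Of all genes 2.57% had one. Of the pathway events 3 of 274, or 1.09%, were called, against 0.537% of all events. The 3 genes were Ddx11, a helicase of sister chromatid cohesion, Mau2, a subunit of the cohesin loader, and Ncaph, a condensin kleisin. In round spermatids 34 were tested and 0 had a called event by limma, where 0.515% of all genes had one, with 6 of 143 events, or 4.20%, at an unadjusted p below 0.05 against 5.88% of all events. Between stages 11 of 33 had a called event, or 33.3%, and 18 events of 122, or 14.8%, near the 28.2% and 12.5% over all genes and events. Among them were the loader subunit gene Nipbl, the mitotic SA gene Stag1 and Smc4 of condensin, with a cassette exon at chr3:69009534-69009660 that differed by 4.05 (SE 0.37, limma adjusted p = 8.61e-25).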

How the data were processed

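Alternative splicing was measured in 8 libraries of sorted mouse germ cells, 2 per genotype and stage. The submitters' processing notes name STAR and mm10, and no version is given in the sources used here. Per the file headers the 10 deposited tables hold reads of the inclusion and skipping forms, form lengths, inclusion fractions, and the authors' p-value and FDR. A deposited read cell is a comma-joined pair, 1 value per library. The deposited level difference is a score of the authors and was not used for tests. Levels recomputed from reads and lengths lay within 0.0005 of the deposited fractions, and the inclusion length was the alternative part plus 149 in every row. Inclusion of mutually exclusive exons stands for the first exon on the plus and the second on the minus strand.

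Events with at least 10 reads per library on average and a read of each form were fitted over the whole table. Log2 odds of inclusion, with 0.5 reads added per form and scaled to the event, entered limma 3.58.1 (R 4.3.3) with inverse counting variance as weights and a trend on reads of the rarer form. Adjustment was by Benjamini-Hochberg over all events, and an adjusted p below 0.05 was called. Reads of the most covered event per gene were tested with limma voom, with library size as their sum over genes, and the stage contrast used 1 fit of 4 groups. Scripts were tested on simulated data, where the stage fit made more false calls than its nominal rate. Counting error is largest for forms with few reads. Named by rule are, for each member, the most covered event, the event of smallest p in each comparison, and every event that was called or lay at least 10 percentage points apart between groups without overlap. The 5′ splice site of Pds5b, the 3′ splice site of Wapl and the Stag3 pair of 97 and 77 nucleotides lie outside the rule and were chosen after their values were seen. The members, lists and fit were chosen with earlier results of these data known. The planned test of genotype by stage was not run, and 1 gene near Rec8 in level is not reported here. Figures used matplotlib 3.10.9 in Python 3.11.15.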

Additional observations from a re-analysis of the deposited data

How the results depend on the processing

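The number of members with a called event in spermatocytes, 1, became 0 with the variance trend on total reads, 0 without weights and 0 without a minimum of reads, and ranged from 0 to 7 when 1 library was left out, as calls over all events ranged from 0 to 11381. In round spermatids it also varied without 1 library, as did the calls over all events. Between stages it was 1 with the second sample groups alone and ranged from 1 to 3 without 1 library. The 2 retained introns and the exon pair of Stag3 were called between stages under all 16 alternatives, the Stag3 exon of 80 nucleotides and the Wapl exon under 12 each and the Pds5a exon under 7. For reads in spermatocytes 1 member was called by limma-trend, which called 545 genes against 6, and 0 to 4 without 1 library. Signs turned for values that were not called: the 501-nucleotide Stag3 intron in spermatocytes (0.0015 without weights, -0.19 to 0.12 without 1 library) and in round spermatids (-0.12 to 0.40 without 1 library), and Pds5a reads in spermatocytes (-0.11 with median-ratio scaling, -0.064 to 0.17 without 1 library). In round spermatids reads without 1 library ranged from -0.021 to 0.22 for Smc1b and from -0.0098 to 0.49 for Smc3. A group left with 1 library is assumed to vary like the others. Between stages median-ratio scaling turned Stag3 to -0.22 and Wapl to -0.066. The cause of these changes was not tested. No paired analysis was possible because the deposited cells join both libraries of a group and carry no replicate number.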
